A study of Mus musculus with 4 samples.

Results

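The genes described here are 7 that encode transcription regulators of T cell identity: Lef1, Tcf7, Bcl11b, Ets1, Runx1, Notch1 and Tox. Their peaks were read from chromatin immunoprecipitation with sequencing (ChIP-seq), a method that recovers DNA lying close to a protein with an antibody against that protein. The antibodies were against Eos and Helios, zinc finger factors of the Ikaros family encoded by Ikzf4 and Ikzf2. The cells were regulatory T cells (Treg cells), the T cells that restrain immune responses, taken from mouse spleen with a kit that selects CD4+CD25+ cells. Wild-type cells were compared here across the antibodies, with 1 anti-Eos and 1 anti-Helios library. The study also has 1 library per antibody from mice carrying Eos-flox with Foxp3-Cre, which deletes the floxed gene in cells that express Foxp3, and these were not analysed here. The labels give no age or sex and no number of mice per library. A peak belonged to a gene where its summit, the position of highest signal, lay inside the gene, or where that gene had the nearest end of any protein-coding gene within 100 kb. By this rule 10 of 1106 anti-Eos peaks and 4 of 469 anti-Helios peaks belonged to the 7 genes, out of 21887 protein-coding genes. There was no replicate of either library, so no test was made, and intervals cover counting error only.

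The 7 genes act at successive steps of T cell development. Notch1 is the receptor whose cleaved intracellular part enters the nucleus and starts the T lineage programme in the thymus. Tcf7 and Lef1 encode TCF-1 and LEF-1, related high mobility group (HMG) box factors that open the programme and later mark naive and memory T cells, and that can bind beta-catenin and Groucho (TLE) corepressors. Bcl11b is a zinc finger factor needed for commitment to the T lineage. Ets1 and Runx1 belong to the ETS and RUNX families, whose binding sites lie side by side in many T cell enhancers, and both are known partners in Foxp3 expression or function. Tox is an HMG box factor needed for CD4 T cell development, and is also known from exhausted CD8 T cells. Ikaros family proteins bind sites with the core GGGAA, which contains the ETS core GGAA.

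Annotated transcription starts bear on where these peaks lay, and 3 of the promoter windows listed for these genes are shown because a peak lies next to them or because their words stand out. Each window runs from 250 bases before to 50 bases after a start, from RefSeq on GRCm38.p6. Windows were listed for 5 of the 7 genes, 10 windows in all, of which a pair at the main start of Lef1 share 274 bases. Ets1 and Tox had none in that table. The first window below is the Lef1 start at 131112791, which begins 31 bp beyond the end of an anti-Eos peak and 6 bp beyond the end of an anti-Helios peak. The next is the internal Lef1 start at 131156294, which lies 1336 and 1299 bp before the summits of the second pair of peaks in that gene. The last is the Tcf7 start at 52282595, next to which neither list held a peak. Capitals mark GGGAA or its complement TTCCC in the first and last windows. In the middle window they mark the TCF/LEF words CTTTGA and CTTTGT or their complements TCAAAG and ACAAAG.
Lef1, chr3:131112541-131112840, + strand: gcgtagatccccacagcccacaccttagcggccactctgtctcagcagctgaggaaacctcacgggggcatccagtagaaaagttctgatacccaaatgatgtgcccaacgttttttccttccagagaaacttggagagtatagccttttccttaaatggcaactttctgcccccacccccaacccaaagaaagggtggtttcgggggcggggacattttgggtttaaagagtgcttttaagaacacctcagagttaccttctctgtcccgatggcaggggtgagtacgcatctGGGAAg
Lef1, chr3:131156044-131156343, + strand: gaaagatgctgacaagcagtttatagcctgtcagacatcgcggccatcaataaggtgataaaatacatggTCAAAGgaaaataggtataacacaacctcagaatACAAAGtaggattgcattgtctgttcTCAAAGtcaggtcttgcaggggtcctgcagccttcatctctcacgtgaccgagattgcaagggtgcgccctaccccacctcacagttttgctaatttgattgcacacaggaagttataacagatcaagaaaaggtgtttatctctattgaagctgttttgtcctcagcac
Tcf7, chr11:52282546-52282845, - strand: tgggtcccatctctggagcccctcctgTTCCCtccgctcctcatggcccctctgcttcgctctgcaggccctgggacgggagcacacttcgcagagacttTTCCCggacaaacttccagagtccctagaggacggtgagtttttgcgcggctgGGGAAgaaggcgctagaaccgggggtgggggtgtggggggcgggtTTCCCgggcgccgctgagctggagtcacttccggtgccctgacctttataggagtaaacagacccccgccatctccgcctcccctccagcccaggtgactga

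Searched on both strands, GGGAA was found in 7 of the 10 windows of these genes, against 62.7% of all 32851 windows in the table. The Tcf7 window shown holds 4 matches, the most of the 10 windows, and 2.31% of all windows reach that number. It was picked for this count, so nothing is read from that share. The longer word TGGGAA, which contains GGGAA, was found in 3 of the 10 windows, all at Lef1, against 25.6% of all windows. The pair of Lef1 windows that share 274 bases hold the same match. They count separately in this and the other numbers. The internal Lef1 window holds no GGGAA and 3 TCF/LEF words, a number reached by 1.14% of all windows. It was shown for these words, so nothing is read from that share. Over the 10 windows, CTTTGA was in 2 and CTTTGT in 1, against 16.0% and 18.7% of all, and 31.2% of all windows hold either word. The RUNX word TGTGGT was found at 2 positions in 1 window, that of the outer Runx1 start, and 16.8% of all windows hold it. The ETS words CGGAAG and AGGAAG were in 1 and 3 of the 10 windows, against 16.9% and 35.4% of all. The E box CANNTG was in 7 of 10 (72.3% of all), the KLF and SP word CACCC in 9 of 10 (57.5%) and the AP-1 word TGANTCA in 0 of 10 (7.81%). These matches describe letters in the windows and are not sites of binding. No peak of either antibody at the 7 genes overlapped a listed window, and the sequence under the peaks themselves was not used here.

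The peaks of these genes were close to their lists in median fold, though single folds ranged widely, and they rested on few fragments. The fold, which is the authors' own value for a peak over its local background, had a median of 6.77 over the 10 anti-Eos peaks of these genes (range 4.16 to 13.0) and 7.31 over the whole anti-Eos list. For anti-Helios the median was 7.50 over the 4 peaks (5.87 to 8.10) and 7.66 over the whole list. The number of fragments at the summit, worked out from each peak's fold and p-value, was 11 to 21 (median 15.5) for the anti-Eos peaks and 12 to 25 (median 14.5) for the anti-Helios peaks of these genes, with list medians of 14 and 18. Which control library each fold was taken over is unknown. Were it the matching knockout library, a fold would compare wild-type with knockout cells, and a missing anti-Helios peak would not mean missing Helios signal. Whether another antibody would recover the same places was not tested.

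**Figure D1:**
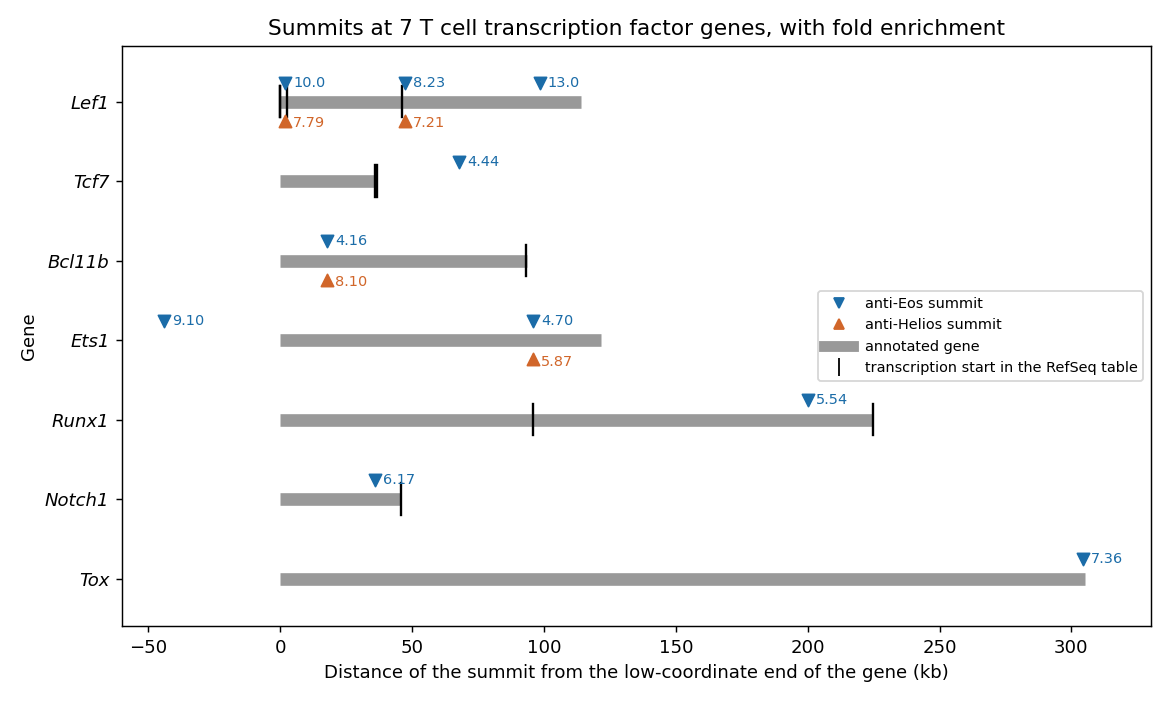
Summits at the 7 genes, 1 row per gene. The horizontal axis is the distance in kb from the low-coordinate end of the gene, the grey bar the annotated gene, and black ticks the transcription starts in the RefSeq table (none listed for Ets1 and Tox); triangles are anti-Eos (above) and anti-Helios (below) summits with their fold. Lef1 carries 3 anti-Eos and 2 anti-Helios summits, the Tcf7 summit and 1 of the Ets1 summits lie outside the gene, and all 4 anti-Helios summits sit beside an anti-Eos summit.

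All 7 genes held an anti-Eos summit and 3, Lef1, Bcl11b and Ets1, an anti-Helios summit. The same rule gave an anti-Eos summit to 4.38% of all protein-coding genes, an anti-Helios summit to 2.12% and both to 1.54%. The genes were chosen with earlier results of these data known, so nothing is read from that contrast. The 7 genes took 0.904% of the anti-Eos list (95% Wilson interval 0.492 to 1.66%) and 0.853% of the anti-Helios list (0.332 to 2.17%), shares that lie inside each other's interval. Among peaks with -log10 q of 5 or more there were 6 anti-Eos summits, at 4 genes (Lef1, Ets1, Runx1 and Tox). With only the 469 anti-Eos peaks of highest -log10 q, as many as the anti-Helios list holds, 4 were left, 3 at Lef1 and 1 at Ets1.

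Lef1 (chromosome 3, 131110297 to 131224357, + strand) carried the most anti-Eos peaks of the 7 genes and the 2 with the highest fold. The peak beside the gene start (131111986 to 131112510) had a fold of 10.0, from 21 fragments where the local background was 1.27 control fragments. The anti-Helios peak there (131112013 to 131112535) had a fold of 7.79, from 25 fragments over 2 control fragments. At 525 and 523 bp these were the widest peaks of the 7 genes in their lists, and their summits, 32 bp apart, lay 612 and 580 bp before the start at 131112791 and 1.88 and 1.91 kb after the outermost start. The second place lay 45.5 kb further into the gene, with an anti-Eos fold of 8.23 (131157503 to 131157750) and an anti-Helios fold of 7.21 (131157560 to 131157698). Both libraries had 15 fragments there over 1 control fragment, and the summits were 37 bp apart.

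The third Lef1 place was in the anti-Eos list alone. It lay 98.4 kb after the outermost start and 15.6 kb from the far end of the gene (131208571 to 131208852). Its fold of 13.0 was the highest of the 7 genes, from 19 fragments over 0.575 control fragments, the lowest background that this list contains, and 93.9% of the list had a lower fold. The nearest anti-Helios summit was the second Lef1 place, 51.2 kb away. Summits inside Lef1 numbered 2.63 per 100 kb of gene for anti-Eos and 1.75 for anti-Helios, against 0.0595 and 0.0288 over the span of all protein-coding genes. Among 3569 other protein-coding genes of 0.5 to 2 times its length, 4.90% held an anti-Eos summit inside and 0.140% held at least 3. For anti-Helios 2.10% held any and 0.056% at least 2. Lef1 was picked for these comparisons because it had the most summits of the 7 genes, so nothing is read from them.

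Counting also summits outside the gene, 0.123% of all protein-coding genes held at least 3 anti-Eos summits and 0.146% at least 2 anti-Helios summits. Both numbers were reached by 9 genes in all, Lef1 among them (0.0411%). The limits were set by the counts of Lef1 itself, so nothing is read from this share. Above Lef1 in total were Sfi1 (4 anti-Eos and 8 anti-Helios summits), Zfp36l2, which encodes a protein that promotes mRNA decay (6 and 3), and the potassium channel gene Kcnn4 (4 and 2), and the other 5 genes had the same numbers as Lef1. With summits inside the gene alone, Sfi1 (3 and 6) was the one other gene of the 9 to reach 3 and 2.

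Tcf7, the paralog of Lef1 (chromosome 11, 52246527 to 52283383, - strand), had no summit inside the gene. Its anti-Eos peak (52314084 to 52314448) lay upstream, 31.4 kb before the nearest listed start and 31.0 kb from the gene end, inside the long non-coding RNA gene Gm30217. The fold was 4.44, lower than in all but 2.62% of the list. It came from 16 fragments, a number above the list median, over 3 control fragments. The nearest anti-Helios summit lay 215.7 kb away, next to Ppp2ca, so the pair of related genes differed in both the number and the place of their peaks.

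At Bcl11b (chromosome 12, 107910403 to 108004145, - strand) the antibodies marked a single place deep in the gene, 75.3 kb after the listed start and 17.7 and 17.8 kb from the far end. The anti-Eos peak (107928031 to 107928241) had a fold of 4.16 and the anti-Helios peak (107928018 to 107928240) a fold of 8.10. Their summits were 42 bp apart. The fragments numbered 11 for anti-Eos (exact 95% Poisson interval 5.49 to 19.7) and 14 for anti-Helios (7.65 to 23.5), intervals that overlap over most of their length. The depth of each library is unknown, so this overlap does not show equal signal. The local backgrounds were 2 control fragments for anti-Eos and 0.672 for anti-Helios. By the inferred formula the background enters the divisor of each fold. How much of the unequal folds this makes up was not tested. The anti-Eos peak stood near the bottom of its list, with 1.27% of peaks lower in fold and a -log10 q of 2.16. The anti-Helios peak was the highest of the 4, with 58.4% of its list lower.

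Ets1 (chromosome 9, 32636241 to 32757820) held a shared place inside the gene and an anti-Eos place outside it. Inside, 25.8 and 25.9 kb from the high-coordinate end, the folds were 4.70 for anti-Eos (32731918 to 32732122, 17 fragments over 3 control fragments) and 5.87 for anti-Helios (32731824 to 32732060, 12 fragments over 1). These summits were 118 bp apart, a gap equalled or exceeded at 9.39% of the 309 anti-Eos peaks with an anti-Helios partner, whose median gap was 30 bp. Both folds were low in their lists, with 5.79% and 17.9% of peaks below them. The outer anti-Eos peak (32591960 to 32592177) was higher, with a fold of 9.10 from 19 fragments over 1.27 control fragments. It lay 44.2 kb from the low-coordinate end of Ets1 and 2.45 kb from the long non-coding RNA gene Gm31871, and 139.9 kb from the nearest anti-Helios summit. The gene table gives no strand for Ets1, so upstream and downstream cannot be told apart here.

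The peak of Runx1 (chromosome 16, 92601466 to 92826074, - strand) was found with anti-Eos alone, at 92801612 to 92801773. Runx1 has an outer and an inner start, and the summit lay between them, 24.3 kb after the outer start. The fold was 5.54, from 15 fragments over 2 control fragments, and 14.7% of the list was lower. With 162 bp it was the narrowest anti-Eos peak of the 7 genes. The nearest anti-Helios summit was 1317 kb away.

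Notch1 (chromosome 2, 26457902 to 26503822, - strand), the receptor gene, held 1 anti-Eos peak 10.1 kb after its start (26493494 to 26493727). The fold was 6.17, from 11 fragments over 1 control fragment, and 25.3% of the list was lower. At Tox (chromosome 4, 6686353 to 6991557), the longest of the 7 genes at 305.2 kb, the anti-Eos peak (6990582 to 6990757) lay 934 bp inside the high-coordinate end. Its fold was 7.36, from 11 fragments over 0.669 control fragments, near the middle of the list with 50.3% of peaks lower. No anti-Helios summit lay within 100 kb of either gene.

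**Figure D2:**
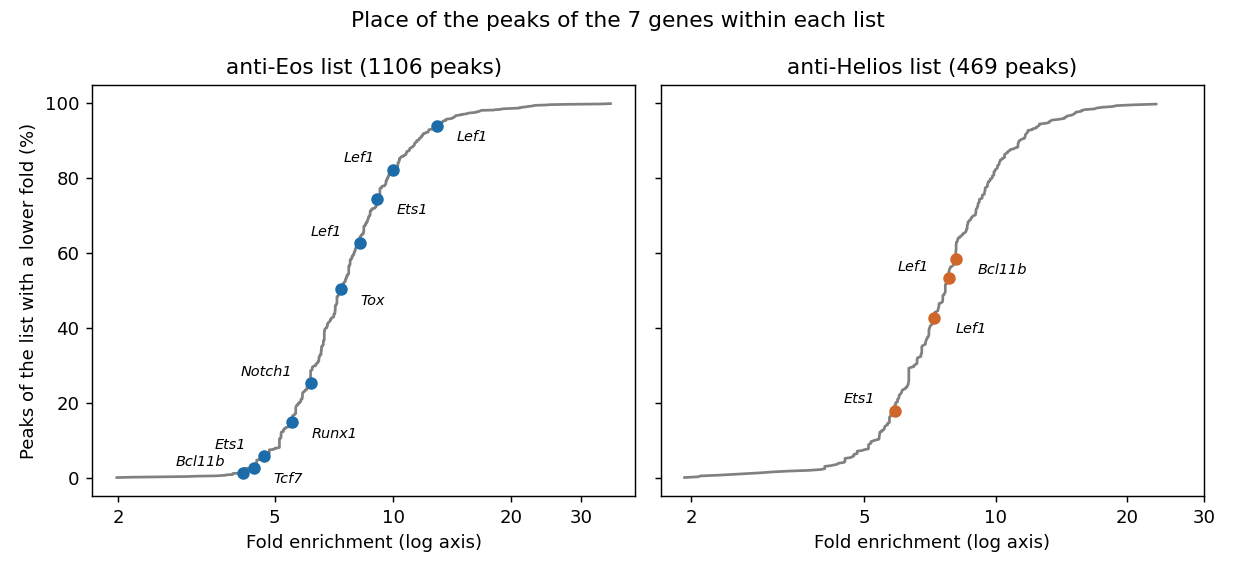
Fold of each peak of the 7 genes (coloured points) within its own list (grey curve). The horizontal axis is the authors' fold on a log axis and the vertical axis the percentage of the list with a lower fold. The Lef1 peaks lie in the upper part of the anti-Eos list, at 62.7 to 93.9%, whereas the Tcf7, Bcl11b and inner Ets1 peaks lie at 1.27 to 5.79%; the 4 anti-Helios peaks lie between 17.9 and 58.4%.

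Within the anti-Eos list, whose folds run from 1.99 to 35.7, the peaks of the 7 genes took ranks from near the bottom to the upper part but none of the highest folds. The 3 Lef1 peaks, the outer Ets1 peak and the Tox peak were above the middle of the list, and the other 5 below it. The 3 lowest, at Bcl11b, Tcf7 and inside Ets1, had local backgrounds of 2 to 3 control fragments, while the list median was 1. The background was worked out from the fold and p-value, so it is not independent of the fold. The Tcf7 and inner Ets1 peaks had 16 and 17 fragments, more than the second Lef1 peak with 15, whereas the Bcl11b peak had 11. Why these folds were low was not tested.

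**Figure D3:**
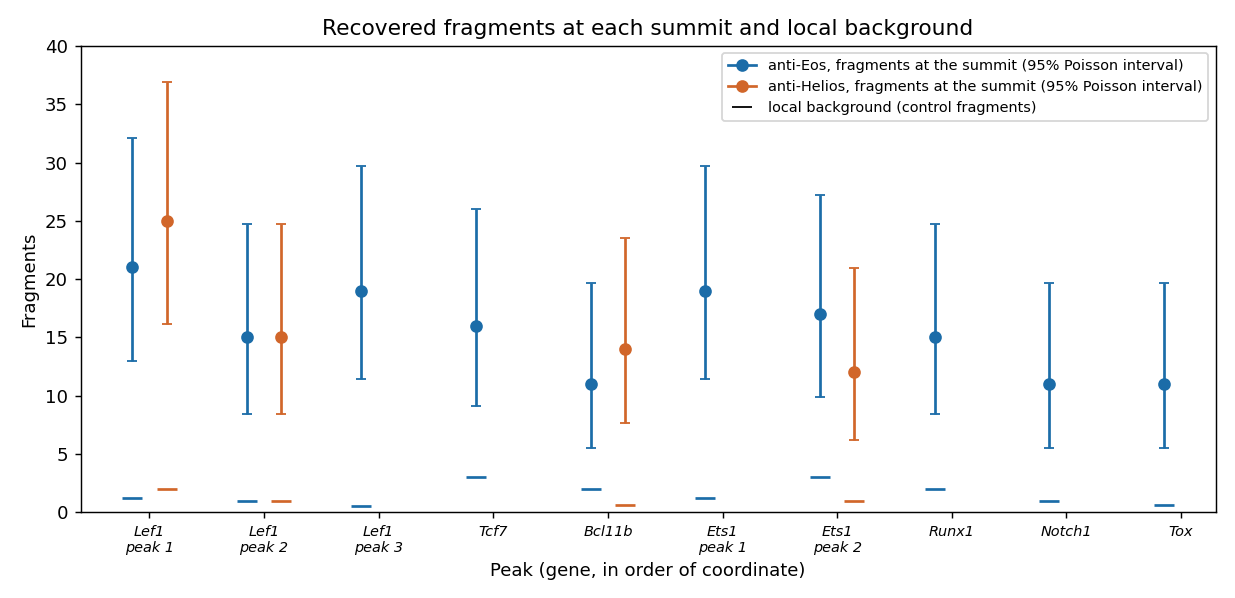
Recovered fragments at each summit of the 7 genes. The vertical axis counts fragments, points carry exact 95% Poisson intervals (counting error only), and short bars give the local background in control fragments; places are ordered by gene and coordinate. All points lie between 11 and 25 fragments, and at each of the 4 places with both antibodies the intervals overlap. Library depth is unknown, so overlap does not show equal signal.

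The antibodies shared 4 places at these genes. Each of the 4 anti-Helios peaks overlapped an anti-Eos peak (Wilson interval of this share 51.0 to 100%), against 65.9% of the whole anti-Helios list. In return 4 of 10 anti-Eos peaks had an overlapping anti-Helios peak (40%, interval 16.8 to 68.7%), against 27.9% of the whole anti-Eos list. The intervals take in the shares of the whole lists, where the same number of shared peaks, 309, is divided by lists of unequal length. In a comparison with the 469 anti-Eos peaks of highest -log10 q, added once the data had been seen, 2 of 4 peaks of these genes were shared in either list (both at Lef1), with 43.7% shared in each whole list. Each of the other 6 anti-Eos summits was at least 51.2 kb from an anti-Helios summit, so none was a near miss. An unlisted place is not an empty one: where the local background was 1 control fragment, the fewest fragments of any listed peak were 8 for anti-Eos and 11 for anti-Helios. Where both peaks had to reach a -log10 q of 5, 2 shared places were left, both at Lef1.

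Most peaks of these genes lay away from gene ends. Of the 10 anti-Eos summits 1, at Tox, had its summit no more than 1 kb from a protein-coding gene end (10%, Wilson interval 1.79 to 40.4%), against 39.5% of the whole list. Of the 4 anti-Helios summits 0 were (interval up to 49.0%), against 51.0%. The anti-Eos interval takes in the share of the whole list, and the anti-Helios interval ends just below it. These intervals treat summits as independent. The 4 anti-Helios summits come from 3 genes and share their places with 4 of the anti-Eos summits, so they are not separate evidence. The median distance to the nearest end was 21.0 kb for the anti-Eos summits of the 7 genes and 2.49 kb over the 1047 assigned summits of the list. For anti-Helios these medians were 21.8 kb and 0.668 kb. Within 10 kb of an end lay 2 of the 10 anti-Eos and 1 of the 4 anti-Helios summits, against 64.3% and 75.7% of the lists. Inside a gene lay 8 of 10 anti-Eos and all 4 anti-Helios summits, against 55.5% and 63.3% of the lists. A summit inside a member counted at any distance from its ends, whereas one outside had a limit of 100 kb. The lists also hold summits assigned to no gene, so these shares are not like for like. By gene, 6 of the 7 held an anti-Eos summit inside (2.57% of all protein-coding genes) and 3 an anti-Helios summit inside (1.33%). Of all anti-Eos peaks 30.4% overlapped a promoter window of the RefSeq table, and of all anti-Helios peaks 40.5%. At the 5 genes with listed windows, 0 of the 7 anti-Eos and 0 of the 3 anti-Helios peaks did. The first Lef1 pair missed a window by only 31 and 6 bp, and Ets1 and Tox had no window to overlap. The 7 genes are 36.9 to 305.2 kb long, and long genes offer more room away from their ends. Length was matched only for the by-gene counts of summits inside, and its part in the other shares was not tested. The genes were chosen with earlier results of these data known, so nothing is read from the contrasts of this paragraph.

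Related genes were then examined in lists of 58 transcription factors and partners that hold the 7 genes. Outside the 7, 7 of 51 genes held an anti-Eos summit (13.7%, with 4.38% of all protein-coding genes as background). Of the 51, 0 held an anti-Helios summit (background 2.12%). These lists were written with earlier results of these data known, so nothing is read from either contrast. Among ETS genes, Elf2 had an anti-Eos peak with a fold of 5.96 (16 fragments, 24.8 kb inside) and Elk3 a peak of 6.48 (9 fragments, 1.87 kb inside), and 7 others, among them Fli1 and Ets2, had none. In the Notch pathway, the coactivator gene Maml2 had a peak 74 bp inside an end (fold 7.48, 13 fragments) and Dtx1, which encodes the ubiquitin ligase Deltex, a peak of 5.03 (23 fragments, 8.38 kb inside). The other 8 genes of that list besides Notch1 had none, including Rbpj, which encodes the DNA-binding partner of Notch, and its target gene Hes1.

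No summit of either antibody was assigned to the paralogs and cofactors of the other members. They were the 8 other TCF/LEF genes and partners (Tcf7l1, Tcf7l2, Ctnnb1 and 5 TLE genes), Bcl11a, Runx2, Runx3 and Cbfb, and Tox2, Tox3 and Tox4. The 5 E protein and Id genes had none either. Against 4.38% and 2.12% of all protein-coding genes with a summit, zeros in lists this short are near the background. Of 12 other T lineage factors 3 had an anti-Eos summit. They were Gata3, which drives T helper 2 and early T cell fate (fold 7.20, 13 fragments), Foxp1 and Klf2, both known for keeping T cells quiescent (fold 4.16 and 11 fragments each). None of the 7 peaks at related genes had an anti-Helios partner, against 27.9% of the whole anti-Eos list with one. So few peaks cannot be set apart from the list by this. A fold below the list median of 7.31 was found at 6 of the 7.

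**Figure D4:**
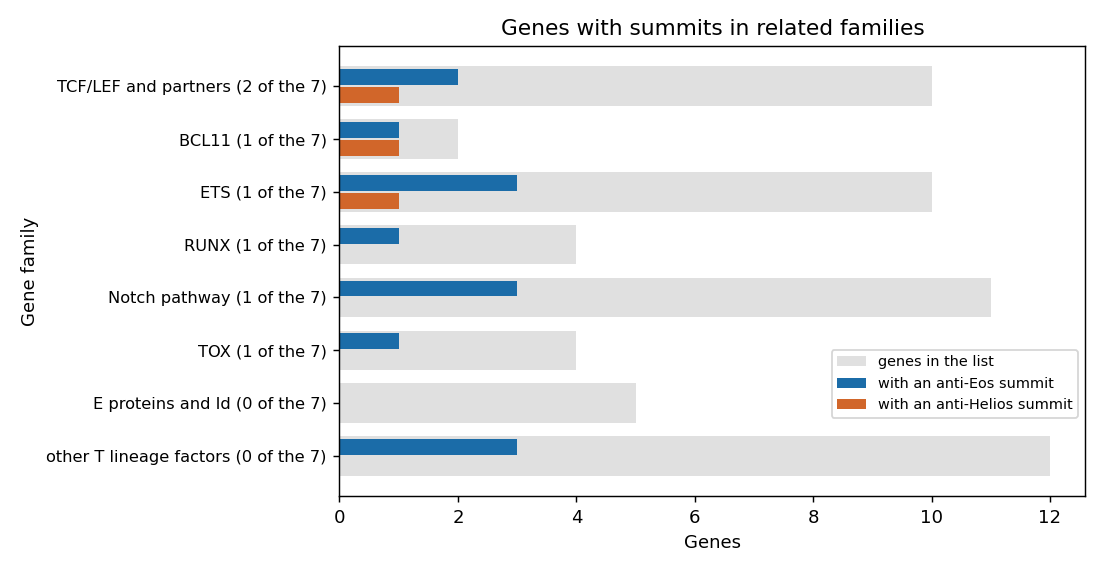
Genes with summits in the lists of related transcription factors. The horizontal axis counts genes, grey bars give the size of each list, and coloured bars the genes with an anti-Eos or anti-Helios summit; the number of the 7 genes in each list stands beside its name. Anti-Helios summits fall only at Lef1, Bcl11b and Ets1 among the 58 genes, and the E protein and Id list holds none of either antibody.

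The label of the cells was read against summits at marker genes, which are not a measure of expression. Anti-Eos summits were found at 3 of 6 T cell genes (Cd3d, Cd2 and Cd5) and 4 of 6 Treg genes (Il2ra, Ikzf2, Ikzf4 and Tnfrsf18), and anti-Helios summits at Cd3d and Tnfrsf18. Foxp3, the defining factor of Treg cells, held none. The 5 markers of CD8 T and NK cells, such as Cd8a, and the 6 of myeloid cells, such as Lyz2, held 0 summits of either antibody. With summits at 4.38% (anti-Eos) and 2.12% (anti-Helios) of all protein-coding genes, lists this short would mostly hold none, so these zeros say nothing of which cells were present.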

How the data were processed

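Splenic cells were fixed with 1% formaldehyde for 10 min and precipitated using 6 µg of antibody, per the labels' protocols. Cutadapt 4.4, BWA 0.7.1, Picard, SAMtools 1.17, deepTools 3.5.1 and the builds mm10 and GRCm38.p6 are named per the submitters' processing notes. The peak caller and its control library are unknown here. The deposited lists give per peak the fold (ratio over background), the -log10 p and -log10 q, a score (not used here) and the summit. The total depth of each library is unknown.

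Fragments at the summit and the local background were recovered by solving fold = (scaled fragments + 1) / (background + 1) together with an upper Poisson tail for the p-value. This returned the authors' fold and p-value for 100% of peaks of both lists within a relative tolerance of 0.0001, with fragments scaled by 0.895 for anti-Helios and 1 for anti-Eos. The formula is inferred, since no source states it. A control fragment was taken to be the commonest local background value above the lowest of each list, 0.943 for anti-Eos and 1 for anti-Helios. This unit is assumed, and backgrounds in it need not be whole numbers. The recovery, the assignment and the word search were tested on simulated data. Genes came from RefSeq on GRCm38.p6, with gene ends but no exons, so exons, introns and UTRs could not be told apart. Starts and strands came from the RefSeq promoter windows. Overlap meant 1 bp in common. Python 3.11.15, pandas 2.3.3, scipy 1.17.1 and matplotlib 3.10.9 were used. The rule for named genes took all 7 genes with every peak, every related gene with a summit, and up to 5 genes with as many summits as Lef1. The genes and lists were chosen with earlier results of these data known. Alternatives changed the -log10 q limit, the assignment distance and rule, the overlap rule and the background allowed. Some of the marker genes examined are not reported here.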

Additional observations from a re-analysis of the deposited data

How the results depend on the processing

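No paired analysis was possible because each group had 1 library. Assignment within 10 or 500 kb, summits inside genes alone, ends of all annotated genes, and removal of peaks over more than 3 control fragments left the counts of summits and of genes within 1.5 times: 8 to 14 anti-Eos summits (10 as reported) at 6 to 7 genes, and 4 to 5 anti-Helios summits (4 as reported) at 3 genes. With a -log10 q of at least 5 there were 6 anti-Eos summits at 4 genes, and 3 anti-Helios summits at 2 genes. With the 469 anti-Eos peaks of highest -log10 q there were 4 at 2 genes, of which 2 overlapped an anti-Helios peak (the overlap part was added after the data were seen). Of the 4 shared places, 2 were kept where both peaks had to reach a -log10 q of 5, and the 3 other overlap rules gave 4. Ranked by -log10 q in place of fold, the median percentile of the peaks fell from 37.8 to 33.9 for anti-Eos and from 48.0 to 40.2 for anti-Helios. Few fragments per peak limit every fold, and places below the lists' limits could not be seen.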

Other observations

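Peaks assigned to no gene were also seen beyond the 100 kb limit and within 500 kb of these genes. On chromosome 9, 170.6 kb from the high-coordinate end of Ets1, lay an anti-Eos peak (fold 5.89, 9 fragments). An anti-Helios peak overlapped it, with its summit at 170.8 kb (fold 8.07, 16 fragments). That summit (32928631) lay just beyond the end of the anti-Eos peak (32928628). A further anti-Eos peak lay at 171.0 kb (fold 6.48, 10 fragments). No protein-coding gene end was nearer to these summits than 100 kb. An anti-Eos peak lay 162.9 kb from Lef1 (fold 8.04, 13 fragments) and another 463.7 kb from Tox (fold 5.84, 8 fragments), neither overlapping an anti-Helios peak.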
